A study of Mus musculus with 6 samples.

Results

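Interleukins are secreted proteins that carry signals mostly between immune cells, and their receptors sit in the membranes of immune and tissue cells. The interleukin-1 family acts through receptor pairs that recruit the adaptor MyD88 and activate NF-κB, and it is held back by a receptor antagonist, decoy receptors and a binding protein. Most other interleukins act through paired receptor chains that switch on Janus kinases and STAT transcription factors, and several of them share a chain. In bone, interleukin-1 and interleukin-17 are known as stimuli of osteoclast formation and resorption, whereas interleukin-4 and interleukin-13 are known to restrain it.

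The genes described here are the interleukins and interleukin receptors outside the gp130 family. They were taken as every gene symbol on the array that begins with Il and a digit, leaving out *Il6*, *Il6ra*, *Il6st*, *Il11* and *Il11ra1*, and they numbered 78 of 31508 symbols, with 127 of 45281 probes. *Il27ra*, *Il27*, *Il31ra* and *Il11ra2* stayed in under this rule although their receptors are built with or like gp130. The symbols are old in places: 70 are gene symbols in RefSeq on GRCm38.p6, and 8 go by another name there, namely *Il28ra* (*Ifnlr1*), *Il8ra* (*Cxcr1*), *Il8rb* (*Cxcr2*), *Il17r* (*Il17ra*), *Il17* (*Il17a*), *Il17e* (*Il25*), *Il28* (*Ifnl3*) and *Il1rl1l* (*Tmed1*). The rule matched ligands, receptor chains and a few unrelated proteins that carry an interleukin name.

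The material was cortical bone of C57BL6 mice aged 3 months. Tibiae and femurs were freed of epiphyses and marrow, digested repeatedly with collagenase and trypsin, and kept in culture as bone tubes. The 3 control (Ctr) arrays held RNA from untreated tubes, and the 3 PTH arrays (Pth) held RNA from tubes given 250 nM of the 1-34 fragment of parathyroid hormone for 24 hours. Each RNA preparation pooled bones from 4 to 5 mice, and the labels do not say whether the 3 arrays of a group came from separate mice or cultures, so the p-values measure the spread between these arrays, which may be technical. The tubes were enriched for osteocytes rather than pure. Every array gave a signal above background for 5 of the 7 osteocyte markers it carries, while *Fgf23* was detected on no array. All 6 neutrophil markers and all 7 macrophage markers were above background on every array. Between 34.2% and 38.4% of probes were above background (detection p under 0.05) on each array.

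Of the 78 genes, 17 were above background on every array by at least 1 probe, 27 on 1 to 5 arrays and 34 on no array. The 38 receptor chains included 9 detected on every array and 13 detected on no array. The 35 ligands, counting the receptor antagonist *Il1rn*, included 5 detected on every array, namely *Il1b*, *Il1rn*, *Il7*, *Il15* and *Il16*, and 21 detected on no array. A probe not above background has only an upper limit and says nothing of whether its gene was transcribed at a low level. The ligands of T helper cells were mostly in this class: *Il2*, *Il4*, *Il9*, *Il10*, *Il17* and *Il21* were above background on no array, and *Il5* and *Il22* on 1. *Il13*, made by T helper 2 cells, was an exception, above background on 4 arrays.

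**Figure D1:**
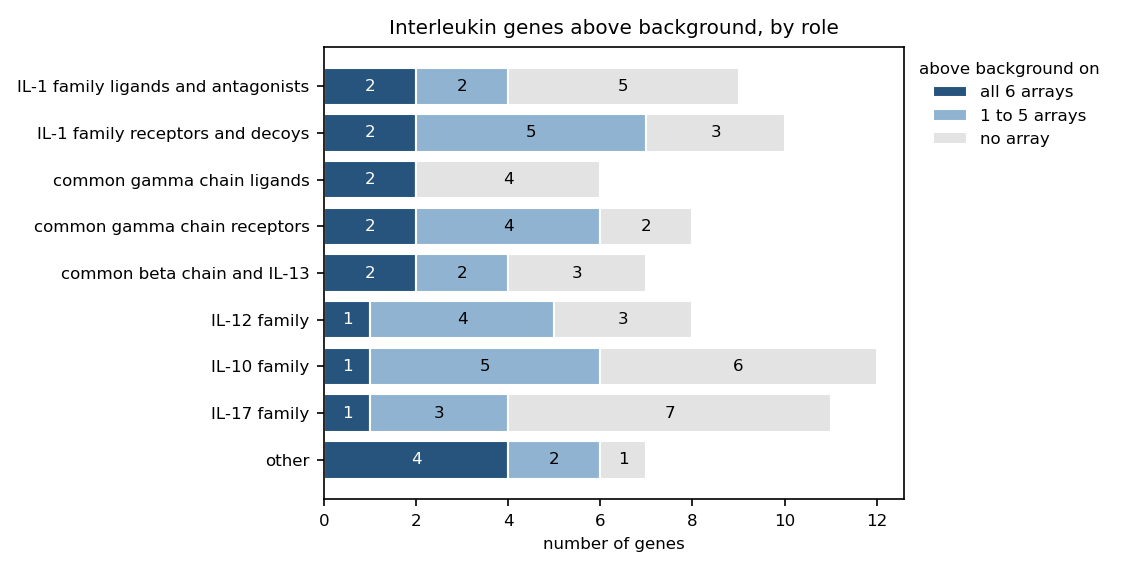
Bars count the genes of each role by the number of arrays on which at least 1 of their probes was above background (detection p under 0.05), in all 6 arrays, 1 to 5 arrays or none. The IL-17 family and the IL-10 family each had 1 gene above background on all 6 arrays, of 11 and 12 genes.

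A probe entered the test if 3 or more of the 6 arrays detected it above background. This left 30 of the 78 genes (38.5%, against 38% of all symbols), each read by its brightest tested probe on a normalized log2 scale. A gene was called when its adjusted p was under 0.05 in limma and its fold change at least 1.5. *Il1rl1* was the single gene called higher with PTH (3.33% of 30, where 0.685% of all genes tested were called higher). *Il28ra* was the single gene called lower (3.33%, where 1.04% of all genes were called lower). It entered the test through the control arrays alone, where it is high, so nothing is read from this count, and the call was lost in several settings. At an unadjusted p under 0.05 with the same fold change, *Il1rl1* and *Il18* were higher (6.67%, against 2.46% of all genes) and *Il28ra*, *Il8rb*, *Il1r2* and *Il1b* were lower (13.3%, against 2.73%). The median log2 fold change was -0.06 over the 30 genes and 0.01 over all genes tested. The arrays did not overlap between groups for 9 members, with PTH above control in 4 (13.3%, against 11.1% of all genes) and below control in 5 (16.7%, against 10.8%). *Il28ra*, with the limit given above, is counted among these 5 and among the 4 lower at an unadjusted p, so nothing is read from those counts either.

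**Figure D2:**
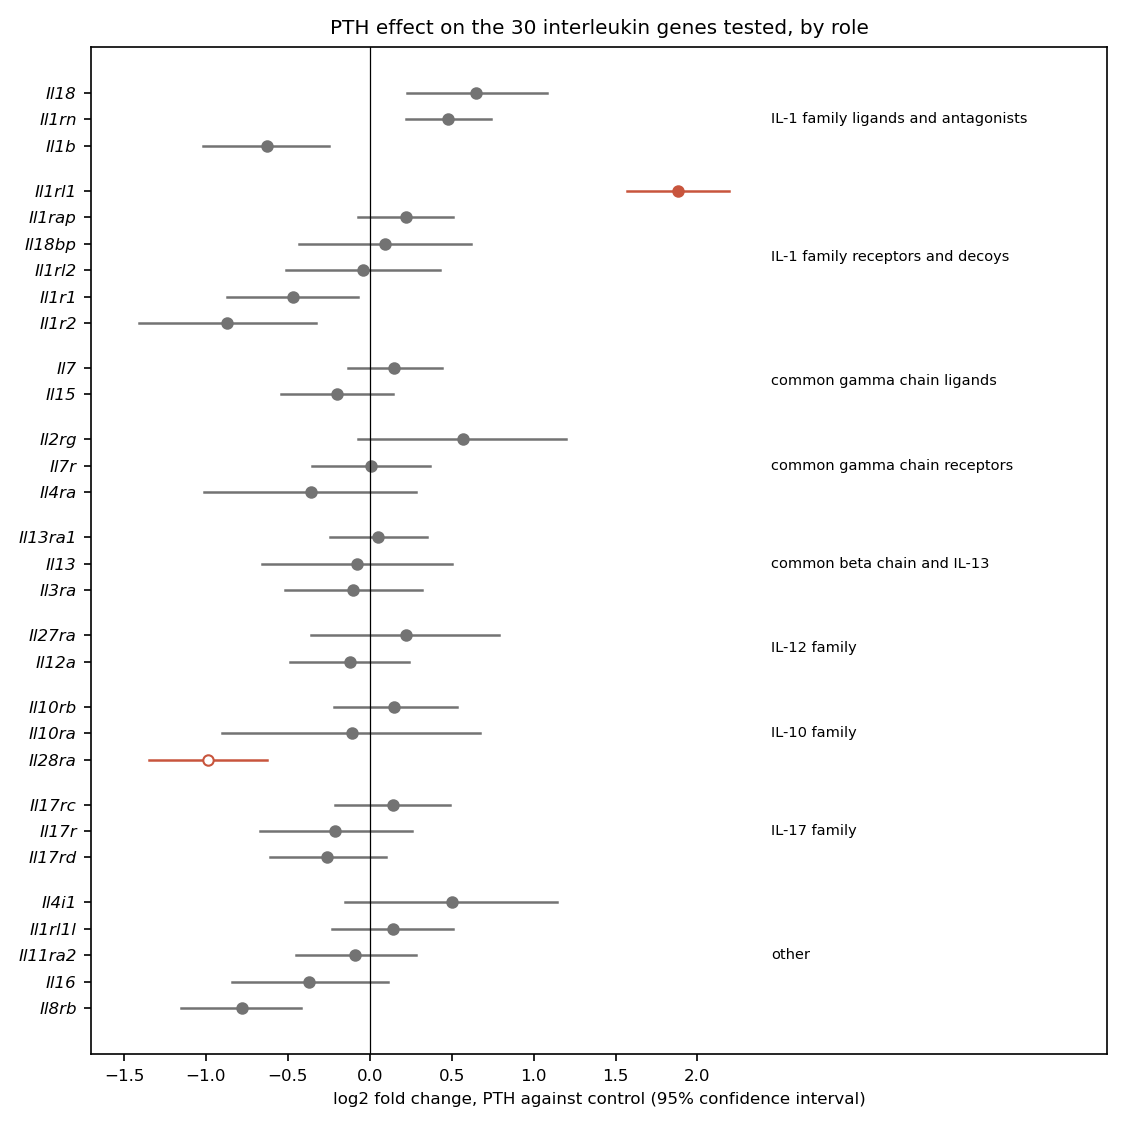
The log2 fold change of PTH over control (horizontal axis) is shown for each of the 30 tested genes, grouped by role, with its 95% confidence interval from limma. The 2 genes with an adjusted p under 0.05 are in red, and the open point marks *Il28ra*, which was not above background on any PTH array, so that its point is a fitted value and the data give a bound of at least 1.58-fold.

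*Il1rl1* encodes ST2, the receptor for interleukin-33, in a membrane form that signals with the chain encoded by *Il1rap* and a soluble form that binds the ligand away from cells. ST2 is known from mast cells, basophils, type 2 innate lymphoid cells and T helper 2 cells, and the soluble form also from stimulated fibroblasts. The 250 bases before each of its annotated starts are shown because this gene had the clearest response, together with those of *Ifnlr1*, the current name of *Il28ra*. They come from RefSeq on GRCm38.p6, all on the plus strand, at chr1:40429320-40429569 and chr1:40439379-40439628 for *Il1rl1* and at chr4:135686207-135686456 for *Ifnlr1*. Capitals mark a match to a motif of the cAMP and AP-1 pathways, through which the PTH receptor is known to act.
Il1rl1, first start: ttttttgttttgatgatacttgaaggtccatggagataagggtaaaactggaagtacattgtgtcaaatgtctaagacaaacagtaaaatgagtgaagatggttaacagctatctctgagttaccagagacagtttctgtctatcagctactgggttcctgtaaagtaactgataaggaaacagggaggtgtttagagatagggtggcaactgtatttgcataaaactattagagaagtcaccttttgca
Il1rl1, further start: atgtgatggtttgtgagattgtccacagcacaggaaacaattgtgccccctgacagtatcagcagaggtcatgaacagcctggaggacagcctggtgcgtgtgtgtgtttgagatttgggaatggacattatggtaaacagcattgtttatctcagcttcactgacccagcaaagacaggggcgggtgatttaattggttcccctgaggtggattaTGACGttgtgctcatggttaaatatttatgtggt
Ifnlr1: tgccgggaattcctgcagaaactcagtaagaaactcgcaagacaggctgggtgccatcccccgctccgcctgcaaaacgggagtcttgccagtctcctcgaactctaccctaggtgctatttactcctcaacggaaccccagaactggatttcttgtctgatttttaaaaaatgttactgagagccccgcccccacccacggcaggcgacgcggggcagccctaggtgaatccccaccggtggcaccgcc

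The motifs searched on both strands were the cAMP response element TGACGTCA, its short form TGACG, which the full element contains, and the AP-1 site TGANTCA. The window of the further *Il1rl1* start held 1 short form 34 bases before the start, and the other windows shown held none of the 3 motifs. Among 32851 windows of this length before annotated mouse gene starts, 1.55% held the full element, 17.8% the short form and 6.75% the AP-1 site. Of the tested genes, 24 of 30 had a window. The short form was found in 3 of them (*Il1rl1*, *Il1r1* and *Il13*), the AP-1 site in 2 (*Il1rn* and *Il16*) and the full element in 0. Counted by gene in the same way, 19.8%, 7.82% and 1.77% of 27025 genes held these motifs. Whether the probes separate transcripts from the different starts is not known, since probe sequences were not used.

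On the 3 control arrays the *Il1rl1* probe read 8.15, 8.22 and 7.87 in normalized log2 signal, and on the 3 PTH arrays 10.03, 9.92 and 9.93. Every PTH array lay far above every control array, and the PTH arrays lay close together. In the deposited signals before normalization, the controls read 322, 394.8 and 327.1 and the PTH arrays 935.4, 1090.6 and 1456.3. The mean rose from 8.08 ± 0.18 to 9.96 ± 0.06 (SD, n = 3 each), a log2 fold change of 1.88 (SE 0.14, 95% confidence interval 1.57 to 2.19), or 3.68-fold (limma adjusted p = 0.000781). The gene has a second probe, which was above background on 0 control arrays and 1 PTH array, with 4.48, 4.32 and 4.35 against 4.62, 5.20 and 4.48, and was not tested. The deposited tables used here do not say which of the 2 transcript forms each probe reads, so the rise cannot be assigned to the membrane or to the soluble receptor.

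Partners of ST2 were measured on the same arrays. *Il1rap*, the signalling chain that ST2 shares with the interleukin-1 and interleukin-36 receptors, read 4.91, 4.95 and 5.01 in controls and 5.19, 5.04 and 5.30 with PTH on its 1 tested probe of 6. That probe was above background on 1 control and 2 PTH arrays, so its values lie near the floor. The PTH arrays lay above the controls by a small margin, and the log2 difference was 0.22 (95% confidence interval -0.07 to 0.51, limma adjusted p = 0.482). The ligand, interleukin-33, is on the array under a clone symbol (*9230117N10Rik*) outside the naming rule and was looked up after the receptor's values were known. Its probe read 4.48, 4.53 and 4.83 in controls and 4.86, 4.55 and 4.64 with PTH and was above background on no array. *Il1rl1l* (*Tmed1*), a vesicle trafficking protein named for its binding to ST2, had a log2 fold change of 0.14 (95% confidence interval -0.23 to 0.51, limma adjusted p = 0.756).

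Cells that carry ST2 were followed by their marker genes. Of 8 mast cell markers on the array, *Hdc*, which makes histamine, and *Kit*, the stem cell factor receptor, were detected on every array, and 5 were detected on no array, namely *Cpa3*, *Fcer1a*, *Mcpt4*, *Mcpt6* and *Ms4a2*. The summed normalized signal of the 8, taken off the log2 scale as in all sums here, was 657 to 749 on control arrays and 501 to 645 on PTH arrays. Most of that sum came from *Hdc* and *Kit* (control means 8.60 and 7.44). *Hdc* and *Kit* had log2 fold changes of -0.54 and -0.37 (limma adjusted p = 0.273 and 0.259). Of the other granule protease genes named *Mcpt*, which are not on this list, *Mcpt2*, *Mcpt7* and *Mcpt9* were above background on no array. *Mcpt8*, a basophil protease, rose from 7.40 ± 0.12 to 8.75 ± 0.07 (SD, n = 3 each), 2.55-fold (limma adjusted p = 0.00293). *Mcpt1*, a mucosal mast cell protease, was above background on 0 control and 3 PTH arrays, with measured means of 4.73 and 6.85. Set against the dimmest detected probes of the control arrays (mean 5.05), it was higher by at least 3.48-fold (limma adjusted p = 0.000747), a test it entered through the PTH arrays alone. *Mcpt1* and *Mcpt8* were looked up after their values were known. Of 8 markers of T cells and innate lymphoid cells, *Cd3d*, *Cd3g* and *Gata3* were above background on no array, and *Cd2* and *Cd3e* on 1. *Rora* and *Thy1* were above background on all 6 arrays and *Lck* on 5, with log2 differences of 0.12, -0.32 and 0.29, none called. All 8 together summed to 387 to 456 in controls and 372 to 431 with PTH. Most of this sum came from *Rora* and *Thy1* (control means 7.12 and 6.76), and *Thy1* is also on the next list. The 7 mesenchymal and fibroblast markers summed to 2489 to 2997 in controls and 3794 to 3923 with PTH, and without *Lrrc15* to 2050 to 2561 and 2305 to 2541. *Lrrc15* was the only one of the 5 tested that was called (log2 fold change 1.77, limma adjusted p = 0.000869), *Lum* and *Pdgfra* had log2 differences of 0.61 and 0.59, *Cxcl12* and *Thy1* of -0.30 and -0.32, and *Dpt* and *Lepr* were detected on no array. The 7 osteocyte markers summed to 13461 to 14592 in controls and 7489 to 8591 with PTH. *Ibsp* and *Mepe* were called lower (log2 fold changes -2.01 and -1.02, limma adjusted p = 0.000747 and 0.0128). *Dmp1*, *Sost* and *Phex* had log2 differences of -1.21, -1.21 and -0.88 and were not called. *Gp38* (*Pdpn*) went the other way, with 0.70 (limma adjusted p = 0.056) and all PTH arrays above the controls. The part of these cells in the *Il1rl1* result was not tested.

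*Il1rl1* lies in a cluster of 6 receptor genes on chromosome 1, in the order *Il1r2*, *Il1r1*, *Il1rl2*, *Il1rl1*, *Il18r1* and *Il18rap* in GRCm38.p6. *Il1rl1* was the only gene of the 6 called. *Il1r2*, a decoy that binds interleukin-1 without signalling, read 6.38, 5.99 and 6.25 in controls and 4.81, 5.53 and 5.66 with PTH. All its PTH arrays lay below the controls, with a log2 difference of -0.87 (SE 0.23, 95% confidence interval -1.41 to -0.33, limma adjusted p = 0.137). *Il1r1*, the signalling receptor for interleukin-1, read 5.44, 5.15 and 5.55 in controls and 4.62, 5.07 and 5.02 with PTH. Its arrays did not overlap either, the nearest being 5.15 and 5.07, and the log2 difference was -0.47 (95% confidence interval -0.87 to -0.07, limma adjusted p = 0.258). The other *Il1r1* probe was above background on no array. *Il1r2* and *Il1r1* were each above background on 3 control and 2 PTH arrays. Their lowest PTH readings, 4.81 and 4.62, lie under the dimmest detected probe of that array (5.15), so both differences depend in part on the floor. *Il1rl2*, the interleukin-36 receptor, had a log2 difference of -0.04 (95% confidence interval -0.51 to 0.43). It was above background on 2 control arrays and 1 PTH array, so its values lie near the floor. The interleukin-18 receptor chains could not be tested: none of 3 *Il18r1* probes was above background on any array, and *Il18rap* was above background on 0 control and 2 PTH arrays.

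**Figure D3:**
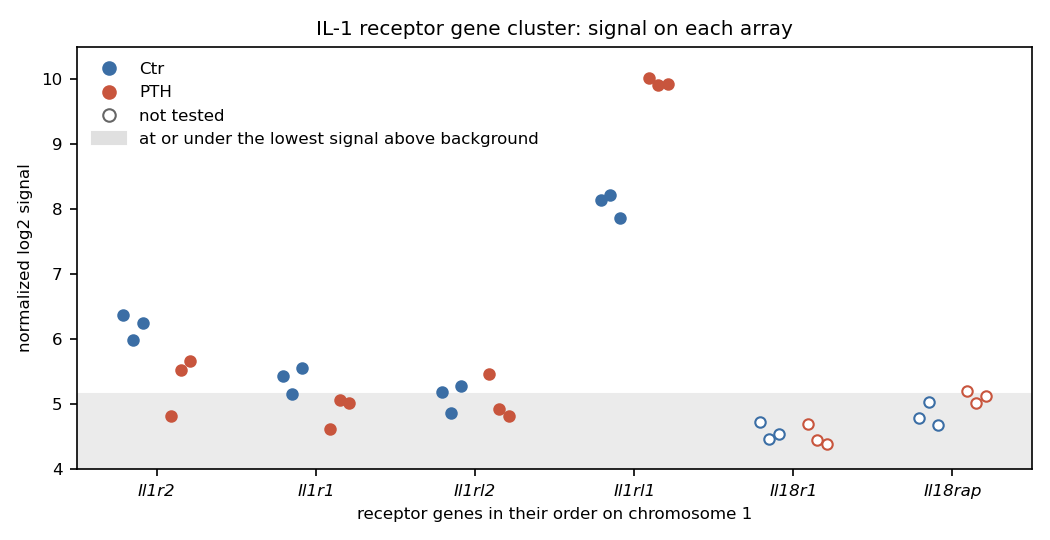
Normalized log2 signal (vertical axis) on each control and PTH array is plotted for the 6 receptor genes in their order on chromosome 1, with open points for genes not tested and shading at or under the lowest signal above background. The PTH arrays of *Il1rl1* lie above its controls, those of *Il1r2* and *Il1r1* lie below theirs, and heights are not comparable between genes because each has its own probe.

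Of the interleukin-1 family ligands, 3 of 9 were tested and none was called. *Il1b*, the main secreted interleukin-1, read 6.20, 6.41 and 6.35 in controls and 5.73, 5.38 and 5.95 with PTH. The PTH arrays lay below all controls, and the log2 difference was -0.63 (SE 0.17, 95% confidence interval -1.02 to -0.25, limma adjusted p = 0.132). *Il1rn*, the antagonist that blocks the interleukin-1 receptor, read 6.84, 6.78 and 6.80 in controls and 7.27, 7.28 and 7.30 with PTH. These were among the tightest groups here, with SDs of 0.03 and 0.02, and the arrays did not overlap, with a log2 difference of 0.48 (SE 0.11, 95% confidence interval 0.22 to 0.74, limma adjusted p = 0.092). It passed the adjusted p in 2 of 8 settings that kept all 6 arrays, but its fold change of 1.4 is under the minimum of 1.5, and its other 2 probes were not tested. *Il18*, a ligand that is released by inflammasomes and acts on lymphocytes, read 5.12, 5.72 and 5.64 in controls and 6.12, 6.29 and 6.01 with PTH. All PTH arrays lay above the controls, with a log2 difference of 0.65 (SE 0.18, 95% confidence interval 0.23 to 1.08, limma adjusted p = 0.156). The other *Il18* probe was above background on no array. *Il18bp*, which neutralizes interleukin-18, had a log2 difference of 0.09 (95% confidence interval -0.43 to 0.62). *Il1a* and the interleukin-36 genes listed as *Il1f5*, *Il1f6*, *Il1f8* and *Il1f9* were above background on no array.

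**Figure D4:**
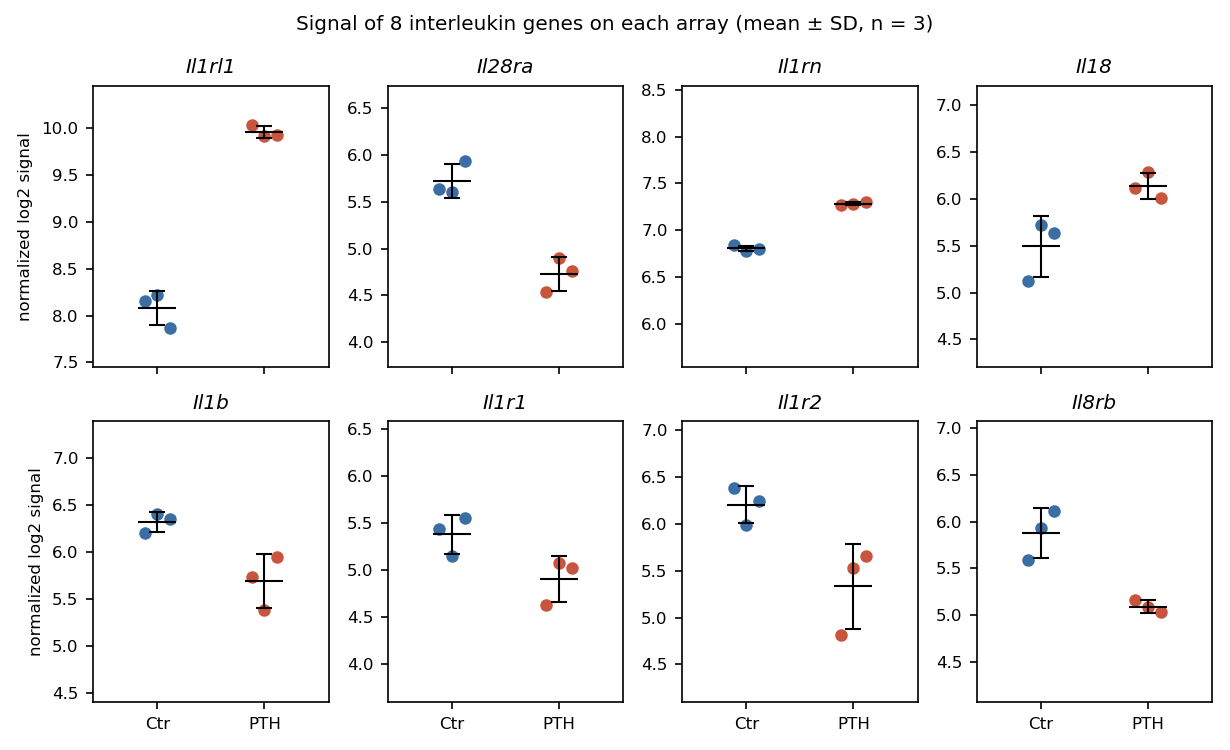
Each panel gives the normalized log2 signal of 1 gene on each of the 3 control and 3 PTH arrays, with the group mean and SD as bars, and every vertical axis spans the same number of log2 units. The groups do not overlap in any of these 8 genes, which were chosen for display with their values known, and the distance between the means is widest for *Il1rl1*, from 8.08 to 9.96.

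*Il28ra* encodes the specific chain of the interferon lambda receptor, which signals together with the chain encoded by *Il10rb* and is known mainly from epithelial cells and neutrophils. Its probe read 5.64, 5.60 and 5.93 in controls and 4.54, 4.90 and 4.76 with PTH. It was above background on all 3 control arrays and on 0 PTH arrays, so it entered the test through the controls alone and only a bound can be given. The mean fell from 5.72 ± 0.18 to a measured 4.73 ± 0.18 (SD, n = 3 each), and set against the dimmest detected probes of the PTH arrays (mean 5.06) it was at least 1.58-fold lower (limma adjusted p = 0.0247). The call was lost when any 1 of the 6 arrays was left out (adjusted p = 0.0649 to 0.0945) and with median scaling (adjusted p = 0.0908). Its other 2 probes were not tested, since 1 was above background on 1 PTH array alone and the other on none. The partner chain *Il10rb*, which also serves the receptors of interleukin-10 and interleukin-22, read 8.24, 8.58 and 8.59 in controls and 8.60, 8.84 and 8.44 with PTH. These arrays overlapped, and the log2 difference was 0.15 (95% confidence interval -0.22 to 0.53, limma adjusted p = 0.728). *Il28*, the ligand, was above background on no array.

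*Il8rb*, now *Cxcr2*, is a chemokine receptor of neutrophils that carries an interleukin name because interleukin-8 is its human ligand. Its tested probe read 5.59, 5.93 and 6.11 in controls and 5.16, 5.09 and 5.03 with PTH, and its other probe was above background on no array. All PTH arrays lay below the controls, with a log2 difference of -0.78 (SE 0.16, 95% confidence interval -1.15 to -0.42, limma adjusted p = 0.0591). *Il1r2* is also known from neutrophils, and *Il1b* from neutrophils and macrophages. All 6 neutrophil markers had log2 differences below 0, and 3 were called lower, where 1.04% of all genes tested were: *Mpo* (-0.91), *Ngp* (-0.88) and *Ltf* (-0.72). *S100a9* (-0.59), *Camp* (-0.52) and *S100a8* (-0.43) were not called, and the groups overlapped for *Camp*. The summed normalized signal of the 6 was 50663 to 51345 in controls and 32923 to 37418 with PTH. *S100a8*, the brightest (control mean 14.64), weighs most in that sum. The 7 macrophage markers summed to 39262 to 40744 and 38219 to 43097, a sum carried mostly by *Lyz* and *Lyzs* (control means 14.75 and 13.06). None of the 7 was called by limma. *Mrc1* and *Emr1* had log2 differences of -0.80 and -0.27, with all PTH arrays below the controls, and *Cd14* one of 0.39, with all above. *Cd68*, *Csf1r*, *Lyz* and *Lyzs* had -0.02, -0.04, -0.02 and 0.07. In RNA from whole tubes, fewer cells of a type and less RNA per cell cannot be told apart, and the part of neutrophil RNA in the values of *Il8rb*, *Il1r2*, *Il1b* and *Il28ra* was not tested.

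Receptors and ligands of the common gamma chain family, which serve lymphocyte growth and survival, gave no call among 5 tested genes. *Il2rg*, the shared chain, read 5.41, 5.39 and 6.17 in controls and 5.82, 6.64 and 6.21 with PTH, so the groups overlapped (log2 difference 0.57, 95% confidence interval -0.07 to 1.2, limma adjusted p = 0.399). *Il7r*, the interleukin-7 receptor, and its ligand *Il7*, a lymphocyte growth factor made by stromal cells, differed by 0.01 (95% confidence interval -0.35 to 0.37) and 0.15 (-0.13 to 0.44) on the log2 scale. *Il15*, which supports natural killer cells, differed by -0.20 (-0.54 to 0.14), with -0.09 and 0.16 on its other tested probes. *Il4ra*, the interleukin-4 receptor chain, differed by -0.36 (-1.01 to 0.28).

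None of the remaining tested genes was called by limma. *Il13ra1*, which forms a receptor for interleukin-4 and interleukin-13 with *Il4ra*, had means of 8.76 ± 0.09 and 8.81 ± 0.12 (SD, n = 3 each), a log2 difference of 0.05 with a 95% confidence interval of -0.24 to 0.35. *Il3ra*, the interleukin-3 receptor chain, differed by -0.10 (-0.52 to 0.32), and *Il10ra*, the ligand-binding chain of the interleukin-10 receptor, by -0.11 (-0.90 to 0.67). Of the interleukin-17 receptors, *Il17r* and *Il17rc*, which together bind interleukin-17A, differed by -0.21 (-0.67 to 0.26) and 0.14 (-0.21 to 0.49), and *Il17rd*, an inhibitor of fibroblast growth factor signalling as well, by -0.26 (-0.61 to 0.10). *Il27ra*, the interleukin-27 receptor chain, differed by 0.22 (-0.36 to 0.79). Its other probe, above background on 2 control and 0 PTH arrays, was not tested and read lower on all PTH arrays. *Il12a*, a subunit of interleukin-12 and interleukin-35, differed by -0.12 (-0.49 to 0.24), *Il13* by -0.08 (-0.66 to 0.50) and *Il16*, a ligand of CD4, by -0.37 (-0.84 to 0.11). *Il4i1*, an enzyme that oxidizes amino acids, differed by 0.50 (-0.15 to 1.14). *Il11ra2* differed by -0.09 (-0.45 to 0.28), but it is a near copy of *Il11ra1* and the probe may read both. The intervals of *Il10ra*, *Il4i1* and *Il4ra*, among others, reach past a 1.5-fold change, and the number of arrays, 3 in each group, limits what could be detected.

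The signalling partners of these receptors on the array were 14 adaptors of the interleukin-1 and Toll pathways, 11 Janus kinases and STATs, 10 inhibitors and 5 receptor chains or ligands with other names, 40 genes of which 35 were tested. By limma 0 were called in either direction, where 0.685% of all genes tested were called higher and 1.04% lower. At an unadjusted p under 0.05 with the same minimum fold change 1 passed, where 2.46% of all genes were higher and 2.73% lower. The median log2 difference of the 35 was -0.01. The adaptor *Myd88* had a log2 difference of -0.30 (limma adjusted p = 0.324), *Stat4*, which carries interleukin-12 signals, one of -0.75 (limma adjusted p = 0.154), and *Pias3*, an inhibitor of STAT3, one of 0.48 (limma adjusted p = 0.184). *Nfkbia*, the NF-κB inhibitor whose transcription follows NF-κB activity, had one of 0.26 (limma adjusted p = 0.398). *Stat4* was above background on 3 control arrays and 1 PTH array, so its PTH values lie near the floor. All PTH arrays lay above the controls in 3 of the 35 genes, *Pias3* and *Nfkbia* among them, and below the controls in 4, *Myd88* and *Stat4* among them. Over all genes tested these shares were 11.1% and 10.8%, so nothing is read from the 2 counts.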

How the data were processed

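Gene expression in 3 control and 3 PTH arrays was measured on a mouse Illumina bead array. The authors deposited a table of probe intensity per array, not normalized, with a detection p-value for each probe, and the submitters' processing notes name GenomeStudio. Genes were named by the symbols in that table. The members and lists were chosen with earlier results of these data known.

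Background was corrected from the detection p-values (normexp, offset 16), followed by quantile normalization and log2, using the neqc function (limma 3.58.1, R 4.3.3). Probes above background (detection p under 0.05) on at least 3 of 6 arrays were fitted with lmFit and eBayes, without covariates, and p-values were adjusted by Benjamini-Hochberg over all probes tested. A gene was read by its brightest tested probe. The script was tested on simulated data. Every gene past the adjusted p in any setting that kept all 6 arrays was named, together with its ligand, chains, decoy and antagonist, and genes above background on all 6 arrays were named by role. *Il18* and *Il8rb* were added after their values were seen. Alternatives changed the normalization (quantile alone, cyclic loess, median scaling, offset 50), the detection filter (none or stricter), the call rule, the arrays (each omitted in turn), the model (a block for the replicate number) and the test (the methods' t-test). Probe sequences were not used, and reference sequences and gene order came from RefSeq GRCm38.p6.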

Additional observations from a re-analysis of the deposited data

How the results depend on the processing

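*Il1rl1* was called higher under every alternative run, with a log2 fold change of 1.57 to 2.02 with all arrays and 1.78 to 1.95 with each array left out. The count of members called lower was 1 with cyclic loess, without a detection filter, with any probe and with no minimum fold change. It was 0 with quantile normalization alone and with an offset of 50, where *Il28ra* missed the minimum fold change (fitted log2 differences -0.33 and -0.52), with median scaling, with the methods' t-test (adjusted p = 0.117), with detection p under 0.01 on all 6 arrays, which removed *Il28ra*, and with each array left out (0 to 0). At an unadjusted p, 2 members were higher and 4 lower, by limma and by the methods' t-test. The cause of these changes was not tested. Over all genes, 82 higher and 125 lower became 63 and 41 with median scaling, which moved the median of all genes to 0.12, 62 and 77 with quantile normalization alone, 112 and 155 with an offset of 50, 124 and 155 with the stricter detection limit, 93 and 139 with cyclic loess, 28 and 40 with the methods' t-test, and 18 to 32 and 28 to 48 with each array left out. *Il1rn* had an adjusted p of 0.0349 with the stricter detection limit, 0.0174 with the methods' t-test and 0.69 with median scaling. The labels do not say what the replicate numbers mark, and they were not taken as pairs in the main fit. Same-numbered arrays deviated with correlations of 0.067, 0.064 and 0.273, and only control 3 correlated best with its own number. With 3 arrays in a group such deviations are not independent, so these correlations cannot decide whether the numbers mark pairs. The percent of probes above background did match by number (34.8 and 34.2, 36.3 and 36.1, 38.4 and 38.4). With the replicate number as a block, 1 member was higher (*Il1rl1*, adjusted p = 0.0161) and 0 were lower (*Il28ra*, adjusted p = 0.0745), and over all genes 19 were higher and 25 lower. Signs turned only in genes that were not called: *Il11ra2* with median scaling (0.04), and with arrays left out *Il10ra* (-0.41 to 0.31), *Il11ra2* (-0.20 to 0.02), *Il12a* (-0.21 to 0.03), *Il13* (-0.36 to 0.15), *Il17r* (-0.35 to 0.02), *Il18bp* (-0.10 to 0.32), *Il1rl2* (-0.25 to 0.08) and *Il7r* (-0.09 to 0.11).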

Other observations

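Further interleukin genes are on the array under clone symbols and fall outside the naming rule. They were looked up after the values of the members were seen. *Il20ra*, a chain of the receptors for interleukin-19, interleukin-20 and interleukin-24, is listed as *E230031K19* with 3 probes. Its tested probe read 5.36, 6.10 and 5.91 in controls and 5.78, 5.67 and 6.01 with PTH, a log2 difference of 0.03 (SE 0.21, 95% confidence interval -0.45 to 0.51, limma adjusted p = 0.964). *Il34*, a ligand of the macrophage receptor Csf1r, is listed as *2010004A03Rik* and read 4.52, 4.44 and 4.69 in controls and 5.55, 4.33 and 4.60 with PTH. It was above background on 1 PTH array and was not tested. *Il31*, listed as *1700013B14Rik*, was above background on no array.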
